A study of Homo sapiens with 15 samples.

Results

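The NKG2D ligands are stress-induced surface proteins by which a cell is recognised by natural killer (NK) cells, and the 8 human genes considered here were ULBP1, ULBP2, ULBP3, MICA, MICB, RAET1E, RAET1G and RAET1L. They were chosen by family membership, and their probes were found through the RefSeq accession that the array files give for each probe. Of the 8 genes, 6 had a probe with such an accession, 10 probes in all, among 22439 genes that could be named on the array. RAET1G and RAET1L had none and are not analysed here. Levels were measured on 15 Agilent single-dye (Cy3) expression arrays of A2058 cells, an established human melanoma line grown with serum, after 8 hours of treatment, with 3 biological replicates in each of 5 groups. The groups were DMSO, NP at 3 μM, water, metformin at 5 mM (5000 μM) and phenformin at 50 μM, and DMSO and water served as the vehicles. NP is the name on the labels, and the series title names neopetasin, whereas the methods of the study describe petasin at this dose in this line. Metformin and phenformin are biguanides, a class of antidiabetic drugs that inhibit complex I of the mitochondrial respiratory chain. All arrays are of 1 cell line, which limits what the groups can model.

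NKG2D is an activating receptor of NK cells and of some T cells, encoded by KLRK1, and it signals through the adaptor DAP10, encoded by HCST. Its ligands resemble MHC class I molecules but present no peptide. MICA and MICB are transmembrane proteins encoded in the MHC region, whereas the ULBP and RAET1 proteins are encoded in a separate cluster on the same chromosome, and ULBP1, ULBP2 and ULBP3 are held in the membrane by a GPI anchor. Healthy cells show little of these ligands, and DNA damage, heat shock, viral infection and the integrated stress response are known to raise them, which makes them of interest in melanoma. ULBP1 is a known transcriptional target of ATF4, the central transcription factor of the integrated stress response. An array measures the transcripts alone and gives no value for the proteins at the cell surface.

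The promoters of ULBP1, ULBP2 and ULBP3 are shown because these neighbouring genes, related in sequence, gave different values after the compounds. Each run holds the 250 bases before the transcription start, 5′ to 3′ on the strand of the gene, from RefSeq on GRCh38.p14. ULBP1 lies at chr6:149963693-149963942 on the plus strand, ULBP2 at chr6:149941764-149942013 on the plus strand and ULBP3 at chr6:150069122-150069371 on the minus strand. Capitals mark exact matches on either strand to 4 motifs: the amino acid response element TGATGNAA, to which ATF4 binds with a partner, the cAMP response element TGACGTCA, the GC box GGGCGG, to which SP1 binds, and the heat shock element core GAANNTTC.
ULBP1: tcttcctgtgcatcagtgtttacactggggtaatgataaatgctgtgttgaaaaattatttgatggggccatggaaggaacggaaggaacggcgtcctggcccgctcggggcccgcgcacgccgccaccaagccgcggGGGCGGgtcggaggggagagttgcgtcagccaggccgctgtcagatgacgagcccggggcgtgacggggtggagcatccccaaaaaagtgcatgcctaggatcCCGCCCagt
ULBP2: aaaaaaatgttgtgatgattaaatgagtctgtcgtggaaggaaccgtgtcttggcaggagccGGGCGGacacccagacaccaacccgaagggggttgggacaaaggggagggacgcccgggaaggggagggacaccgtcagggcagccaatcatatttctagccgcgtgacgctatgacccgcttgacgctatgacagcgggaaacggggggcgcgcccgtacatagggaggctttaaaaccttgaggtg
ULBP3: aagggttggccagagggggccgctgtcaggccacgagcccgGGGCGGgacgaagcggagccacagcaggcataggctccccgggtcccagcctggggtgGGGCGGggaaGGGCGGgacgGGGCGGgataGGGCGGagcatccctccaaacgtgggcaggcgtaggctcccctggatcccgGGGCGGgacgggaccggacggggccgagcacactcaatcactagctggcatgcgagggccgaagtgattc

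All capitals in the 3 promoters were GC boxes, with 2 in ULBP1, 1 in ULBP2 and 6 in ULBP3. Over the same 250 bases of 35116 promoters, a GC box was found in 42.6%, an amino acid response element in 3.14%, a cAMP response element in 1.65% and a heat shock element core in 5.78%. MICA and MICB each held 1 GC box and 1 heat shock element core, spelled GAATTTTC in both. ULBP2 had 1 match to the amino acid response element within the 50 bases after its start. No match says only that these letters are not in this window, and none of the matches overlapped another.

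The labelled cell type was checked against its markers before the ligands were compared. By the flag of the extraction software, 8 of 9 melanoma and melanocyte genes exceeded background clearly (well above background) on all 15 arrays, and TYR, which encodes tyrosinase, did so on 13. KLRK1 itself was well above background on 0 of 15 arrays. Of the 10 NK and T lymphocyte genes, NCAM1 and PTPRC, 2 in number, passed this flag on all 15 arrays, GZMB did on 13, NKG7, GNLY and CD3E on 11 each, CD2 on 4, PRF1 on 3 and KLRD1 on 1. CD14 and CSF1R, 2 of the 3 macrophage genes measured, and COL1A1, LUM and THY1, 3 of 6 fibroblast genes, also passed it on all 15. Of all 58201 probes, 24076 passed it on all 15. All samples are of a single cultured line, and the source of the signal on these marker probes was not tested. The number of probes well above background lay between 25804 and 32056 on a DMSO or NP array. It lay between 31408 and 45044 on a water or biguanide array. No spot was saturated. The array of NP replicate 2 was the only one whose detection limit (2.28) lay outside the range that the extraction software accepts. DMSO and NP arrays shared 2 slides and the arrays of water and both biguanides shared 2 others, so that slide set and vehicle cannot be told apart. Each treated array, however, lay on the same slide as the vehicle array of its replicate number.

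After NP treatment, ULBP1 was higher than after DMSO in all 3 pairs, by about 4-fold on average, but it did not pass the adjusted p. Levels are log2 intensities minus the log2 of the array's 75th percentile, so that a negative level is a signal below that percentile. ULBP1 (NM_025218) was -3.21, -4.21 and -2.87 after DMSO in replicates 1, 2 and 3. It was -1.85, -0.79 and -1.23 after NP. The lowest NP array was thus above the highest DMSO array, and the probe was well above background on all 3 NP arrays and on 2 of 3 DMSO arrays, the exception being DMSO replicate 2. The means were -1.29 ± 0.53 (SD, n = 3) after NP and -3.43 ± 0.69 (SD, n = 3) after DMSO. The log2 fold change was 2.14 (standard error 0.37, 95% confidence interval 1.31 to 2.98), a 4.41-fold difference. Limma gave an unadjusted p of 0.00019 and a p of 0.135 after Benjamini-Hochberg adjustment over 26826 features. The pairs differed by 1.36, 3.42 and 1.64, and the largest difference came from replicate 2. That replicate held the DMSO array not well above background and the NP array with the detection limit out of range. Without replicate 2 the difference on the log2 scale was 1.501 (adjusted p = 1 in limma). The value also fell to 0.81 (adjusted p = 0.273) with normexp background correction, which adds an offset of 50 to every intensity and so compresses dim probes. The probe entered the tested features only through the treated groups, since each vehicle had it well above background on 2 of 3 arrays. Without the filter on dim probes the adjusted p for NP was 0.534 in limma, and with the filter and slide as a random block it was 0.0392.

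**Figure D1:**
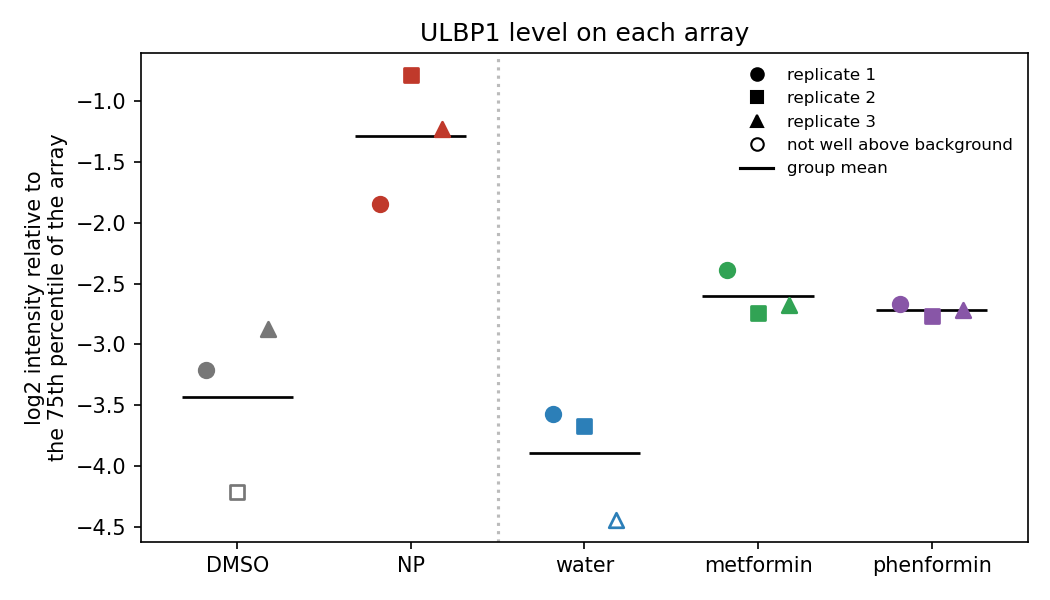
ULBP1 level on each of the 15 arrays, by group, as log2 intensity minus that of the array's 75th percentile (y axis), with symbols for the replicate number, open symbols for arrays not well above background and a line at the group mean. The dotted line parts the slide sets. The 3 NP arrays (-1.85 to -0.79) lie above all others, and the metformin and phenformin arrays lie above all 3 water arrays.

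ULBP1 was also higher after each biguanide than after water in all 3 pairs, by between 2-fold and 3-fold, and passed the adjusted p with neither. After water it was -3.57, -3.67 and -4.44, the last of these not well above background. After metformin it was -2.39, -2.74 and -2.67. After phenformin it was -2.67, -2.76 and -2.72, and neither biguanide group overlapped the water group. The log2 fold change was 1.29 for metformin (standard error 0.37, 95% confidence interval 0.46 to 2.13, unadjusted p = 0.0062 in limma), with 1.18, 0.92 and 1.77 in the pairs. It was 1.17 for phenformin (standard error 0.37, 95% confidence interval 0.34 to 2.01, unadjusted p = 0.0105 in limma), with 0.90, 0.91 and 1.72 in the pairs. The adjusted p was 1.00 for both. The largest pair difference of both biguanides was that of replicate 3, in which they share the water array not well above background. Without replicate 3 the log2 fold changes were 1.05 and 0.90. With normexp background correction they were 0.45 and 0.41. Because both biguanides were set against the same water arrays, their ULBP1 values are not independent of each other. As with NP, the probe had entered the tested features only through the treated groups, so that a higher treated value was favoured by the filter.

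In the order of the group means, ULBP1 was highest after NP, followed by metformin (-2.60), phenformin (-2.72), DMSO (-3.43) and water (-3.89). The arrays of metformin and phenformin overlapped, as did those of DMSO and water, and no DMSO array reached the phenformin arrays. Between the biguanides, phenformin minus metformin was -0.12 on the log2 scale (95% confidence interval -0.95 to 0.72). The doses of the compounds differ, and NP stands on other slides and against another vehicle. The rise over its own vehicle was 0.85 larger on the log2 scale for NP than for metformin (95% confidence interval -0.33 to 2.03, unadjusted p = 0.14 in limma). It was 0.97 larger for NP than for phenformin (95% confidence interval -0.21 to 2.15, unadjusted p = 0.098 in limma). Neither difference passed, and both intervals hold differences of more than 2 log2 units in favour of NP. The other ULBP1 probe was not well above background on any of the 15 arrays, and no fold change is given for it.

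MICA and MICB, the ligands encoded in the MHC region, were lower after NP than after DMSO in all 3 pairs, by less than 1.5-fold, and neither passed the adjusted p. MICA (NM_000247) was 4.48, 4.40 and 4.29 after DMSO. It was 4.19, 4.20 and 3.98 after NP, below every DMSO array. This gave a log2 fold change of -0.27 (standard error 0.11, 95% confidence interval -0.51 to -0.03, unadjusted p = 0.032 and adjusted p = 1.00 in limma). The other MICA probe gave -0.24 (95% confidence interval -0.53 to 0.05), also lower in all 3 pairs. On that probe the groups overlapped, with 2.34 to 2.87 after DMSO and 2.22 to 2.53 after NP. MICB (NM_005931) was 3.93, 3.99 and 4.19 after DMSO. It was 3.75, 3.78 and 3.98 after NP, so that the groups overlapped although each NP array was below its own DMSO array. This was a log2 fold change of -0.20 (standard error 0.10, 95% confidence interval -0.43 to 0.03), and the pairs differed by -0.17, -0.21 and -0.21. The other MICB probe gave -0.27 (95% confidence interval -0.73 to 0.18). MICA and MICB are close relatives, and whether a probe also binds transcripts of the other gene was not tested.

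With the biguanides, MICA and MICB differed little from water. MICA ranged from 4.69 to 4.94 after water, from 4.72 to 4.87 after metformin and from 4.74 to 4.87 after phenformin, and the 3 groups overlapped. Its log2 fold change was -0.05 with metformin (95% confidence interval -0.29 to 0.19) and -0.05 with phenformin (95% confidence interval -0.29 to 0.19). MICB ranged from 3.77 to 4.15 after water, from 3.65 to 4.06 after metformin and from 3.84 to 3.93 after phenformin. Its log2 fold change was -0.08 with metformin (95% confidence interval -0.31 to 0.15), lower in all 3 pairs, and -0.10 with phenformin (95% confidence interval -0.33 to 0.13). None of these intervals reaches a change of 1.5-fold. Between the vehicles, MICA was 0.46 lower on the log2 scale in DMSO than in water (adjusted p = 0.0211 in limma), and MICB differed by 0.06. The vehicles lie on different slides, so that vehicle and slide set cannot be told apart in these differences. The share of all features that differ between the vehicles was not counted.

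ULBP2 and ULBP3, the GPI-anchored relatives of ULBP1, showed no difference of the size seen for ULBP1 with any compound. ULBP2 (NM_025217) was 0.32, 0.39 and -0.29 after DMSO and 0.22, 0.27 and -0.39 after NP. Both groups were lowest in replicate 3, and the pairs differed by only -0.10, -0.12 and -0.10. Its log2 fold change was -0.11 (standard error 0.16, 95% confidence interval -0.46 to 0.25) with NP. It was -0.15 with metformin (95% confidence interval -0.50 to 0.21), again lower in all 3 pairs, and -0.04 with phenformin (95% confidence interval -0.39 to 0.32). ULBP3 (NM_024518) was -3.31, -3.29 and -3.51 after DMSO and -3.13, -3.42 and -3.27 after NP. It was well above background on 2 of 3 arrays in each of these groups and on all arrays of the other groups. The log2 fold change was 0.10 with NP (standard error 0.16, 95% confidence interval -0.26 to 0.45), and the groups overlapped. It was 0.12 with metformin (95% confidence interval -0.24 to 0.47) and 0.20 with phenformin (95% confidence interval -0.16 to 0.55), the latter higher in all 3 pairs. The standard error of these fold changes was 0.16, beside 0.37 for ULBP1.

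**Figure D2:**
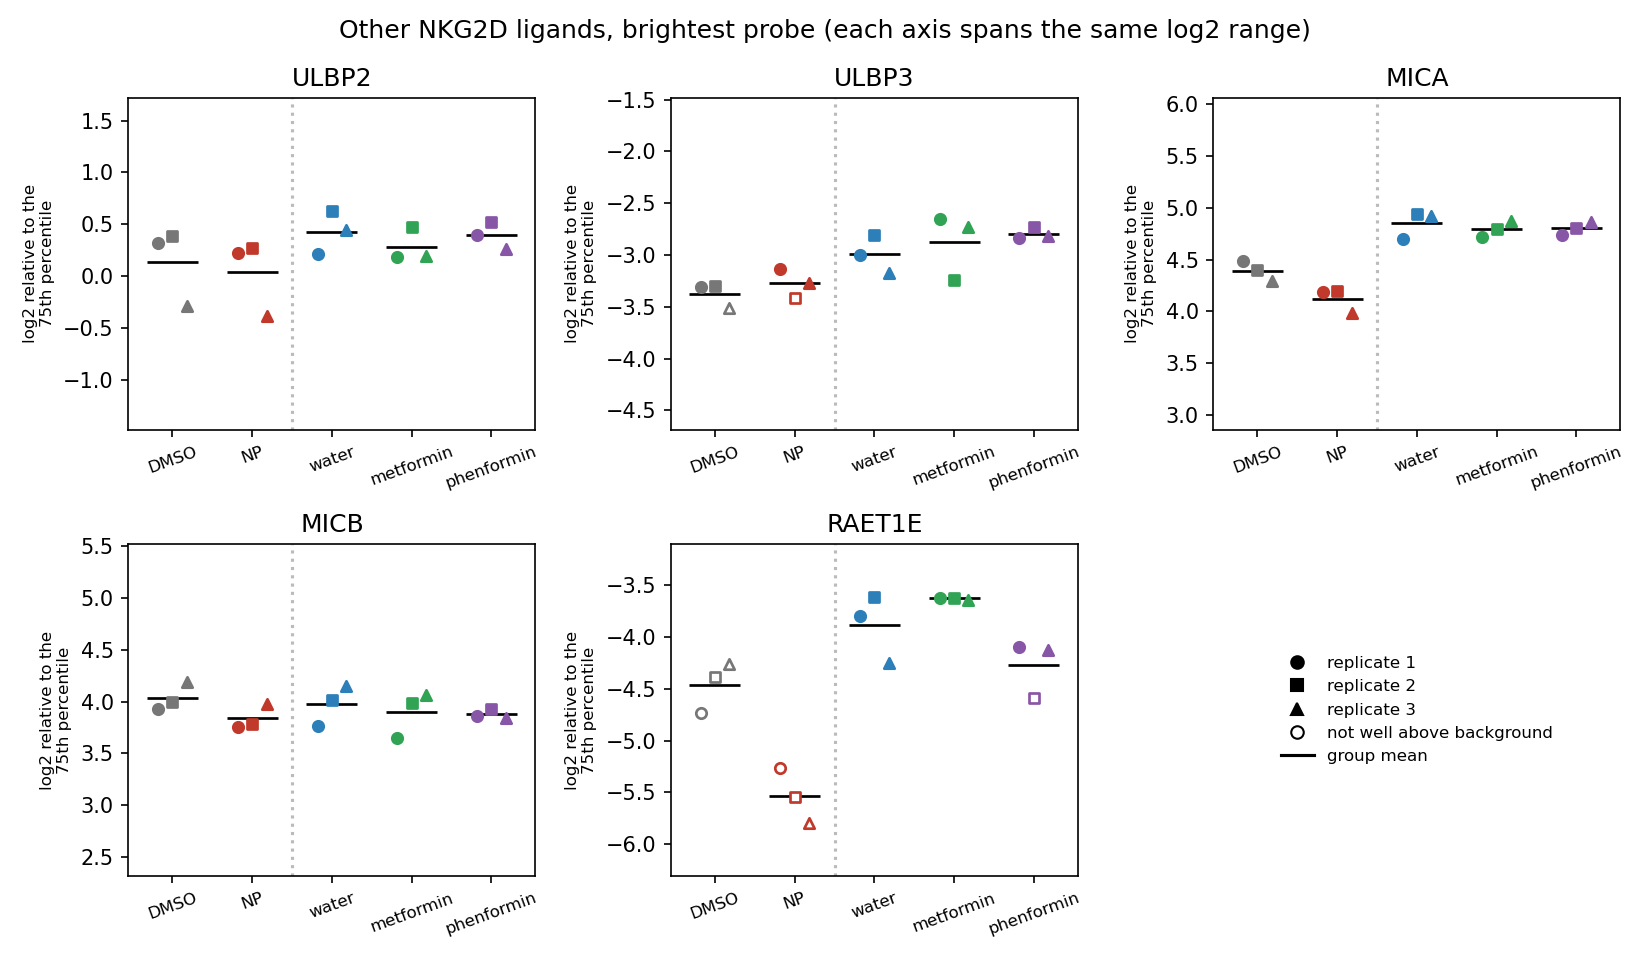
Levels of the other 5 measured ligands on each array (brightest probe), as log2 intensity minus that of the array's 75th percentile, with the symbols used for ULBP1 and y axes of equal span. MICA lies lower on the NP arrays (3.98 to 4.20) than on the DMSO arrays (4.29 to 4.48). For RAET1E none of the 6 DMSO and NP arrays is well above background.

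RAET1E, which encodes ULBP4, could not be compared between NP and DMSO. Neither of its probes (NM_139165) was well above background on any of the 6 DMSO and NP arrays, and no fold change is given. On the brighter probe it was -3.80, -3.62 and -4.25 after water, -3.62, -3.62 and -3.64 after metformin, and -4.10, -4.59 and -4.12 after phenformin. All of these arrays except phenformin replicate 2 were well above background. The log2 fold change was 0.26 with metformin (standard error 0.21, 95% confidence interval -0.21 to 0.73) and -0.38 with phenformin (95% confidence interval -0.85 to 0.09), and the metformin and phenformin groups each overlapped the water group. The other RAET1E probe gave 0.07 (95% confidence interval -1.02 to 1.15) and -0.30 (95% confidence interval -1.38 to 0.79). More probes of all kinds were well above background on the slides of water and the biguanides, and the part of this in the RAET1E values was not tested.

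Across the family, no measured ligand was called with any compound, where a call needed a change of 1.5-fold or more in either direction together with an adjusted p no higher than 0.05. With NP, 0 of 5 measured ligands were called, beside 0.0373% of all features (10 of 26826, and 1257 at an unadjusted p of at most 0.05 in limma). With metformin it was 0 of 6 beside 0% of all features in limma, 659 of which had an unadjusted p of at most 0.05. With phenformin it was 0 of 6 beside 0.0261% (7 of 26826, and 631 at an unadjusted p of at most 0.05 in limma). At an unadjusted p of at most 0.05 the ligands were ULBP1 and MICA with NP, and ULBP1 alone with each biguanide. With NP, 1 of 5 ligands (ULBP1) was higher in all 3 pairs, beside 14.3% of all features, and 3 of 5 (MICA, MICB and ULBP2) were lower in all 3, beside 18.9%. With metformin, 1 of 6 was higher in all pairs, beside 22.3%, and 2 of 6 (ULBP2 and MICB) were lower, beside 20.3%. With phenformin, 2 of 6 (ULBP1 and ULBP3) were higher, beside 12.2%, and 0 of 6 were lower, beside 14.8%. On the brightest probe of each gene, the groups of arrays did not overlap for 2 of 5 ligands with NP (6.44% of all features), for 1 of 6 with metformin (5.76%) and for 1 of 6 with phenformin (8.13%). ULBP1 is among the ligands higher in all pairs and among those without overlap for every compound. It entered the tested features only through the treated groups, which favours such counts. The median log2 fold change of the measured ligands was -0.11 with NP, 0.03 with metformin and -0.04 with phenformin, beside -0.0142, 0.0044 and -0.0339 over all features.

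**Figure D3:**
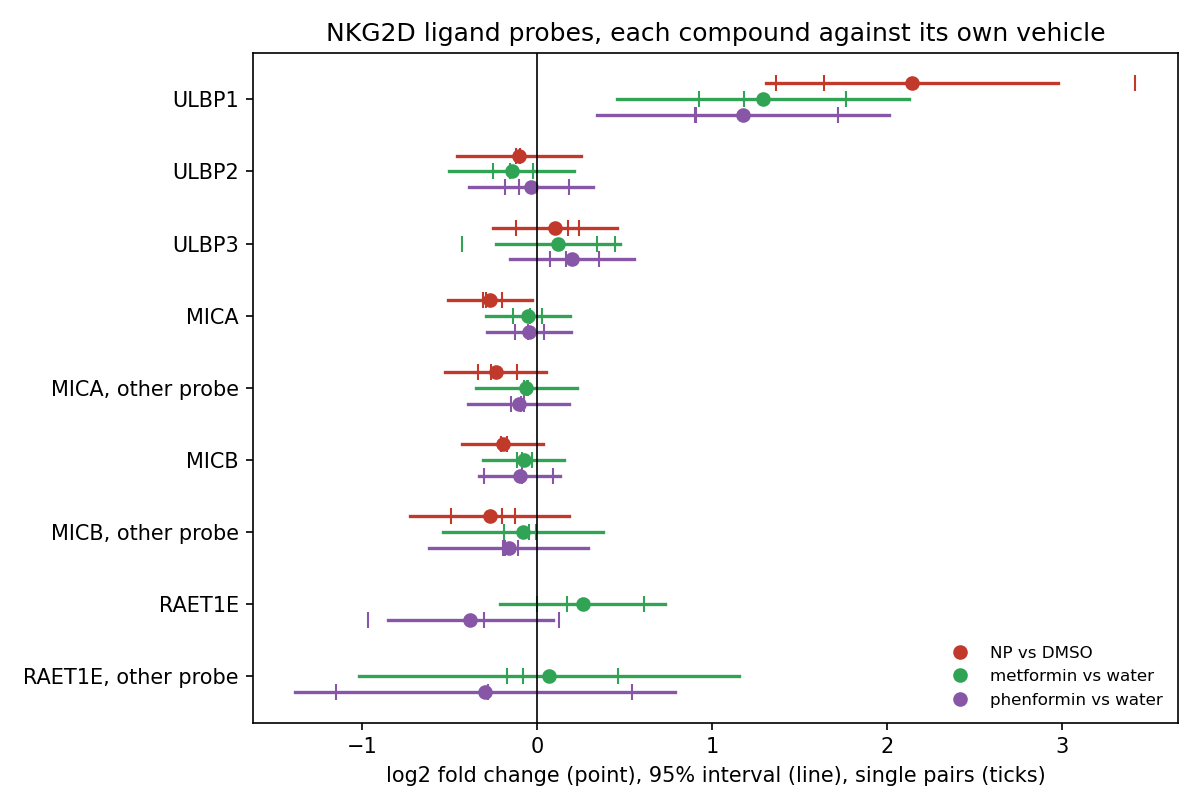
Log2 fold change of each ligand probe above background (x axis) for NP against DMSO, metformin against water and phenformin against water, with the point at the fitted value, the line for its 95% confidence interval and ticks for the 3 pairs. The 3 ULBP1 intervals (lowest bound 0.34) lie to the right of 0, and RAET1E has no value for NP. The intervals are not adjusted for the number of features, and the ULBP1 probe entered the tested features only through the treated groups.

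The genes around the ligands were described by 6 lists, in none of which a gene was called in any of the 3 comparisons. Of 16 regulators of ligand expression (stress and DNA damage factors, E2F1, SP1, RBM4 and others), 6 had a positive log2 fold change with NP, with a median of -0.02. With metformin 11 of 16 were positive (median 0.03) and with phenformin 14 of 16 (median 0.06). All 16 were well above background on all 15 arrays. Features of that kind had medians of -0.021 with NP, -0.005 with metformin and -0.006 with phenformin. The share of all features with a positive value was not counted, so the counts of positive genes in these lists have no background. The members with the largest values for NP were DDIT3 and ATF4. DDIT3, the gene of the pro-apoptotic factor CHOP, had log2 fold changes of 1.04 with NP (adjusted p = 0.247 in limma), 0.69 with metformin and 0.63 with phenformin. ATF4 had 0.60 with NP (adjusted p = 0.702 in limma), 0.52 with metformin and 0.57 with phenformin. Both genes were higher in all 9 pairs of a treated array and its vehicle.

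Ligands can be shed from the cell surface by proteases. Of 5 shedding genes, 3 were positive with NP (median 0.07), and the largest values were those of MMP9 (0.12), a matrix metalloproteinase, and ADAM10 (0.08), a membrane sheddase. Of the 5 subunits of the GPI transamidase, which attaches the anchor that ULBP1, ULBP2 and ULBP3 carry, 3 were positive with NP (median 0.02), with PIGU at -0.17 and PIGK at 0.06. With phenformin all 5 members of each of these lists were positive, with medians of 0.12 and 0.06. Every member passed the flag for background on each of the 15 arrays. The phenformin median was -0.006 over the features that did so, and -0.03 over all features. For metformin the medians of these lists were -0.02 and 0.02.

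Ligands of other receptors of NK cells had a median of -0.03 with NP over 9 genes tested of 11. CLEC2B, which encodes the ligand AICL of the receptor NKp80, had a log2 fold change of -0.55 with NP (standard error 0.13, unadjusted p = 0.0023 and adjusted p = 0.485 in limma), and its pairs differed by -0.37, -0.61 and -0.66. It had -0.0021 with metformin and -0.27 with phenformin. CD70, the ligand of CD27, had -0.19 with NP. With metformin and phenformin the medians of this list were -0.003 and -0.10. MHC class I genes, whose products restrain NK cells, had a median of -0.01 with NP over 11 genes, with TAPBP, which encodes the peptide-loading factor tapasin, at 0.19 (pairs of -0.07, 0.69 and -0.05, so that the sign rests on replicate 2). Of the 11, 10 were positive with metformin (median 0.07) and 9 with phenformin (median 0.05). All 11 were well above background on all 15 arrays, and features of that kind had medians of -0.005 and -0.006. Among adaptor genes of NK cell receptors, HCST had 0.19 and TYROBP, which encodes the adaptor DAP12, 0.14 with NP. The medians of these 2 genes were 0.16 with NP, 0.09 with metformin and -0.09 with phenformin.

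The genes most like ULBP1 were sought over the 9 differences between a treated array and the vehicle array of its replicate number, among 13869 named genes well above background on all 15 arrays. The differences of metformin and phenformin share their water arrays, and the correlations are a description. Pearson's r was highest for PROSER2 (0.95), RIMS3 (0.95), ZNF559 (0.94), BBS7 (0.94) and LRRC36 (0.93). Their Spearman's rho ran from 0.73 (LRRC36) to 0.90 (BBS7). By rho, BBS7, a subunit of the BBSome of the primary cilium, was in place 5, and the other 4 were in places 45 to 128. For all 5 genes the largest difference was that of NP replicate 2, the pair in which ULBP1 differed by 3.42. PROSER2 differed by 0.92 in this pair and by 0.14 and 0.04 in the other NP pairs. BBS7 differed by 3.09 in this pair and by -0.02 and -0.06 in the others. Without this pair r was 0.73 for PROSER2, 0.69 for RIMS3, 0.82 for ZNF559, 0.72 for BBS7 and 0.60 for LRRC36. ATF4 had an r of 0.68 and a rho of -0.25, and without this pair its r was -0.58. The likeness to ULBP1 rested on 1 pair for ATF4, whose values in the other 8 pairs lay between 0.37 and 0.65.

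**Figure D4:**
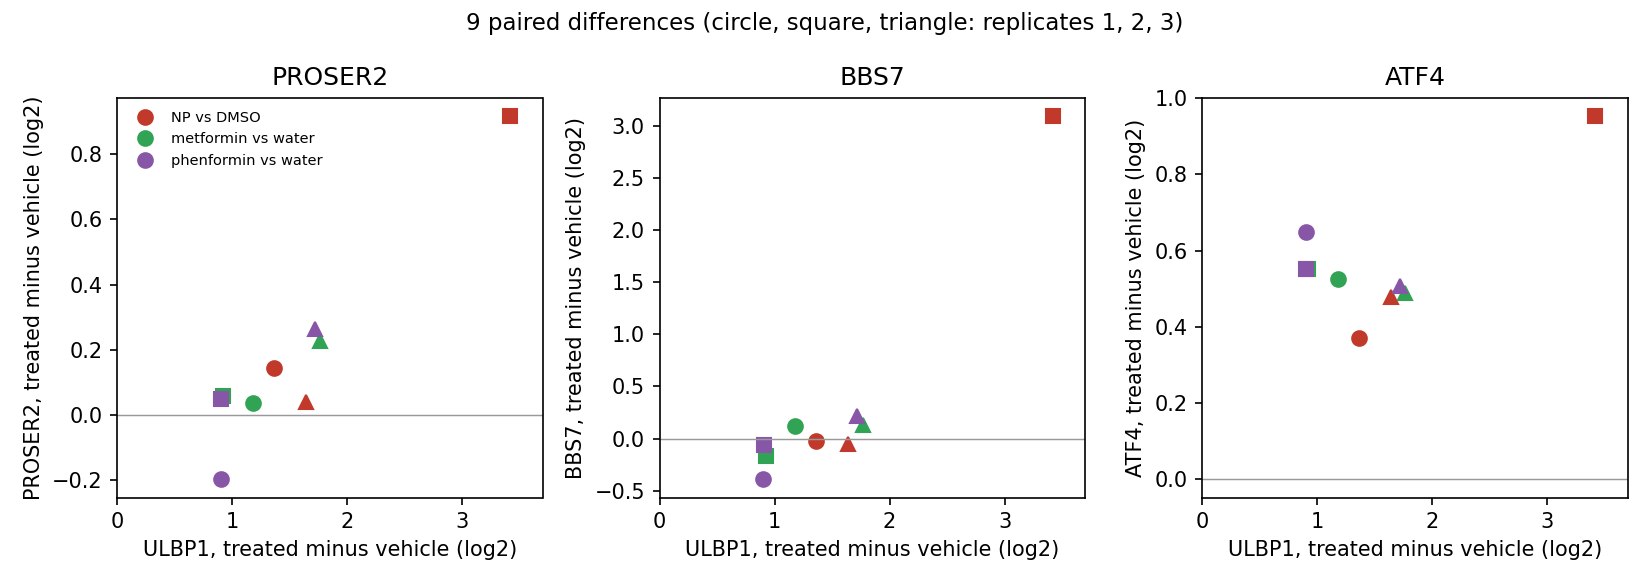
Differences between each treated array and its vehicle array (log2) for PROSER2, BBS7 and ATF4 (y axes) against ULBP1 (x axis), with 1 symbol per pair and colours for the compounds. NP replicate 2, with a ULBP1 difference of 3.42, stands apart from the other 8 pairs, which lie between 0.90 and 1.77.

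**Figure D5:**
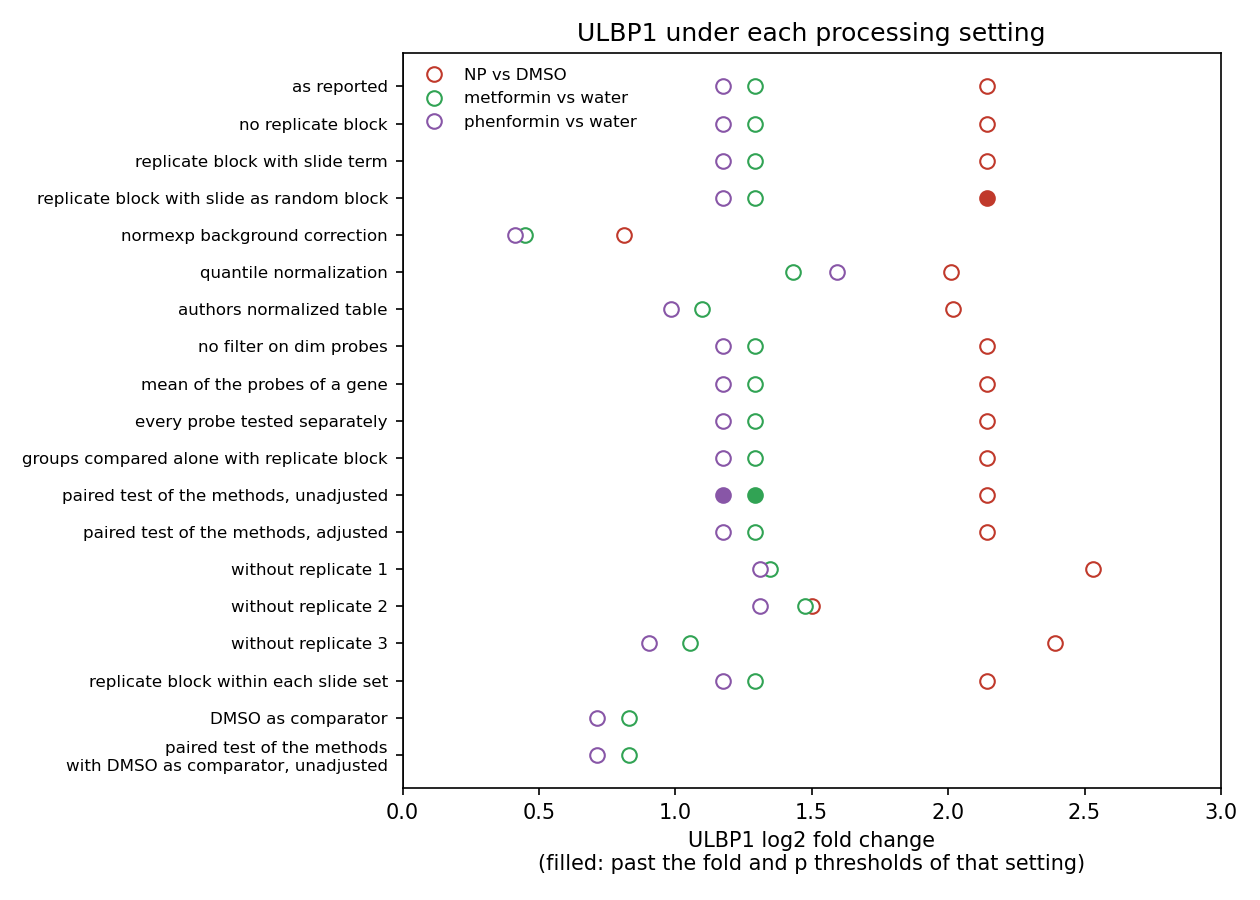
ULBP1 log2 fold change (x axis) under each processing setting (y axis) for the 3 comparisons, with filled symbols where the setting's thresholds on fold and p were passed. All values are positive, from 0.41 to 2.53, and the lowest of each compound came with normexp background correction. Settings that alter only the block, the test or the set of features repeat the reported value.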

How the data were processed

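RNA of A2058 cells was labelled and hybridised by the authors to Agilent single-dye arrays (design on hg19). The deposited intensities per array were background-subtracted and detrended by Agilent Feature Extraction (10.7.3.1 per the file headers, 9.1 per the submitters' processing notes) and were not normalized between arrays. The authors also deposited a log2 table, scaled by the 75th percentile and floored at 4, used as an alternative. The deposited flag for well above background and other spot flags were taken as given.

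Control spots were removed, outlier spots set to missing, spots of a probe averaged, and the log2 of each array's 75th percentile subtracted. Probes were named through RefSeq accessions (31104 of 33080 matched). Probes had to exceed background clearly on every array of some group and to have values on 8 or more arrays, and the brightest such probe stood for its gene (32914 of 58201 probes, 26826 features). Of the 10 ligand probes, 9 passed.

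Limma 3.58.1 (R 4.3.3, statmod 1.5.0) was fitted over all 15 arrays with 5 groups and the replicate number as a block, with two-sided tests and p-values adjusted by Benjamini-Hochberg across the features of a comparison. The methods pair the replicates, and each treated array deviated together with the vehicle array of its number (r of 0.327 to 0.845 over the 9 pairs). These pairs lie within a slide set, whereas the block of the fit is shared across both slide sets. Python 3.11.15, pandas 2.3.3, numpy 2.4.6 and matplotlib 3.10.9 were used for tables and figures. The fit was tested on simulated data. Normexp (offset 50) was applied to the median spot signal. Precision is limited by the 3 arrays of each group.

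The members and lists were chosen with earlier results of these data known. Named were all ligands, in each list every gene called and the 2 with the largest absolute change with NP, the 5 genes most like ULBP1, ATF4 and KLRK1, and markers where the text gives them, except 1 gene that is not reported here. Other alternatives were no block, a slide term, slide as a random block, quantile normalization, other filters and probe rules, a fit of 2 groups at a time, the methods' paired test, DMSO as the comparator and each replicate left out. The replicate block within each slide set and the paired test against DMSO were chosen after seeing the data. A planned comparison of protein sequences was not run.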

Additional observations from a re-analysis of the deposited data

How the results depend on the processing

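ULBP1 was higher with each compound under every setting that tested it, with log2 fold changes of 0.81 to 2.53 for NP (16 alternatives), 0.45 to 1.47 for metformin (18) and 0.41 to 1.59 for phenformin (18). Settings that alter only the block, the test or the set of features repeat the reported fold change, so their direction could not change. With slide as a random block beside the replicate block (correlation 0.495), the adjusted p of ULBP1 for NP was 0.0392 in limma (2.14), 1 ligand called. The share of all features called in that fit was not counted. The probe, however, had entered the tested features only through the treated groups. Without the filter on dim probes the adjusted p was 0.534 in the limma fit with the replicate block alone. By the methods' paired test without adjustment, here against water, ULBP1 passed for metformin (1.29) and phenformin (1.17), 1 ligand called in each, and not for NP. How many of all features passed that unadjusted test was not counted, so these calls have no background. After adjustment ULBP1 passed for none of the compounds. The methods name DMSO as the comparator of the biguanides, and that paired test, added after the data had been seen, did not pass ULBP1 for metformin (0.83) or phenformin (0.71). Without the replicate block the log2 fold changes were the same (2.14 for NP, adjusted p = 0.108), and no ligand was called. With the replicate block within each slide set, ULBP1 for NP had an adjusted p of 0.0941 in limma, and no ligand was called. Over the fits without replicate 1, 2 or 3, ULBP1 ranged from 1.501 to 2.53 for NP, 1.05 to 1.47 for metformin and 0.90 to 1.31 for phenformin, with 0 ligands called in each. On probes above background on all 15 arrays ULBP1, ULBP3 and RAET1E were not tested, so that setting gives no value for them.

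With DMSO in place of water, which crosses the slide sets, 1 ligand was counted as called for metformin, in limma and in the unadjusted paired test. This was RAET1E, which was not well above background on any DMSO array. Its bound of at least 1.1-fold is under the 1.5-fold that a call needs, so the count does not stand as a call. In that setting MICA changed sign to 0.40 for metformin and 0.41 for phenformin, and ULBP2 to 0.14 and 0.25. ULBP3 moved from 0.12 to 0.50 (adjusted p = 0.0434 in limma) and from 0.20 to 0.58 (adjusted p = 0.0337 in limma), short of 1.5-fold. With DMSO as the comparator, the share of all features called or passing the adjusted p was not counted, so these values have no background. Over the fits without 1 replicate, ULBP3 ranged from -0.0438 to 0.394 for metformin, and MICB from -0.197 to 0.00233 and ULBP2 from -0.144 to 0.0402 for phenformin, each with its sign changed without replicate 3. RAET1E changed sign to 0.0166 for phenformin with quantile normalization. The causes were not tested. Of 249 alternatives over the 14 results of the other ligands, 237 kept the direction. Many of these alternatives alter only the block, the test or the set of features and repeat the reported fold change. Their direction could not change, so the count does not measure robustness. Dim probes (ULBP1, ULBP3 and RAET1E) are limited by signal over background, and 3 arrays per group limit all intervals. The comparison of protein sequences was not run.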
